A study of Mus musculus with 8 samples.

Results

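Crypt base columnar cells are the cycling stem cells at the bottom of the intestinal crypt, and 9 genes that mark them are described here in 2 sorted fractions of the mouse small intestinal epithelium. The genes are Lgr5, Ascl2, Olfm4, Smoc2, Msi1, Aqp4, Tnfrsf19, Rgmb and Igfbp4. They were chosen by name as genes of the Lgr5 stem cell signature, and each was found by its Ensembl identifier among the 23318 genes of every library. All 9 of the 9 met the filter on low values, as did 12906 genes in all. The CD24Mid fraction, which the series also calls CD24low, has 4 libraries with title numbers 1, 3, 5 and 7, and the CD24Neg fraction has 4 with title numbers 2, 4, 6 and 8. In both fractions cells carrying the leukocyte antigen CD45, or binding Ulex europaeus lectin (which recognises fucose), were depleted alongside the sort on the surface glycoprotein CD24. The series text calls the libraries biological replicates. Neither strain nor age, sex or the number of animals behind a library is stated in the labels. Every fraction is thus a gate on CD24 with these depletions and not on a stem cell reporter, and a library mixes all cells that pass the gate.

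Crypt stem cells divide continually, and their daughters move upward, stop dividing and become absorptive or secretory cells. The stem cell state depends on Wnt signals, which R-spondins strengthen through receptors of the Lgr family, on Notch signals, and on keeping bone morphogenetic protein (BMP) signals low at the crypt base. Lgr5 and Ascl2 are Wnt target genes, Olfm4 responds to Notch, and Rgmb belongs to the BMP pathway, so the genes listed here are linked to several pathways. Whether their levels here follow those signals was not tested.

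The values are the authors' normalised expression values per gene. No source used here states their unit, and they were read as not divided by gene length. Part of the low values of a library clustered at even steps: of values under 30 steps, 35.4% to 40.4% lay within 0.1 of a step, where an even spread would give 20%. Reading 1 step as 1 read, which is an approximation, gave an estimated depth of 17.4 to 19.4 megareads in the CD24Mid libraries and 12.4 to 20.5 megareads in the CD24Neg libraries. One read was worth 0.591 to 0.698 units in CD24Mid and 1.08 to 1.79 units in CD24Neg. Mitochondrially encoded genes took 8.03% to 9.10% of the summed values in CD24Mid and 28.3% to 37.4% in CD24Neg, which left 15.9 to 17.8 and 8.03 to 14.6 megareads for nuclear genes. Cd24a, the gene of the sorting antigen, was at 2821 ± 622 in CD24Mid and 414 ± 122 in CD24Neg (SD, n = 4 each, log2 fold change -2.79, limma adjusted p = 2.34e-06). Of 8 general epithelial genes, among them Epcam and Cdh1, all were detected in both fractions, with 4 not called, 3 higher in CD24Neg and 1 lower. Of all tested genes, 34.0% were higher and 34.3% lower. Vil1, a microvillus protein gene, was 6.39-fold higher in CD24Neg, Krt8 1.47-fold and Cldn7 1.28-fold, and Krt18 was 1.57-fold lower. Below, a log2 fold change is CD24Neg minus CD24Mid after adding 0.5 to each value, which understates the change of low genes. Adjusted p-values come from limma, were adjusted over all 12906 tested genes (Benjamini-Hochberg) and had a threshold of 0.05.

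Promoter sequences were available for 5 of the 9 genes, in 8 windows of 250 bases before an annotated start, from RefSeq on build GRCm38.p6, whereas the submitters' processing notes name NCBIM37 for the deposited values. Lgr5, Smoc2, Msi1 and Aqp4 had no entry. The 4 windows below are shown because they belong to the most abundant marker (Olfm4), a pair of markers with large fold differences (Ascl2 and Tnfrsf19) and one with a small fold difference (Igfbp4). Each runs 5′ to 3′ toward the start, and capitals mark a match to CTTTGAT or CTTTGAA (letters of the TCF/LEF motif), CAGCTG (an E-box that Ascl2-type factors can bind) or TATAAA, searched on both strands.
Olfm4, chr14:80000052-80000301, plus strand: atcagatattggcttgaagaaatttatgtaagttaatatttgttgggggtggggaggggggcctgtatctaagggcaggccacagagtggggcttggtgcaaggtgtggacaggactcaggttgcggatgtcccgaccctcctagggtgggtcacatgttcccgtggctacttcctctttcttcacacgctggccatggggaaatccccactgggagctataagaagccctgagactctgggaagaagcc
Ascl2, chr7:142969265-142969514, minus strand: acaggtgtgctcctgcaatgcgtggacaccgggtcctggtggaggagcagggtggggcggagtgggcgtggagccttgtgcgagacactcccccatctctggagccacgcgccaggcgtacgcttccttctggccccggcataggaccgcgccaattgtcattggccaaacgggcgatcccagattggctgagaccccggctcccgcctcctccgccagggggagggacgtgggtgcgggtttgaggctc
Tnfrsf19, chr14:61037988-61038237, minus strand: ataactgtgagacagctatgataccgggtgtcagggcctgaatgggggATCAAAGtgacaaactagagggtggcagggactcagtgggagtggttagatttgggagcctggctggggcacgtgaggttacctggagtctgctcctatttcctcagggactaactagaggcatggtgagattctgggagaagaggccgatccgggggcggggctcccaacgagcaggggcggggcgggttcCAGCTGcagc
Igfbp4, chr11:99040994-99041243, plus strand: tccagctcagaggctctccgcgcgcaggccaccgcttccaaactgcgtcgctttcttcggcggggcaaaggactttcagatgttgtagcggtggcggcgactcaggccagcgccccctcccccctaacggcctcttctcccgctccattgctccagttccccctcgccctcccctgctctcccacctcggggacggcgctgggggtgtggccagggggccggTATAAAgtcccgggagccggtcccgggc
The Tnfrsf19 window holds CTTTGAT on the strand opposite to the gene, its match beginning 202 bases before the start, and CAGCTG beginning 10 bases before it. Tnfrsf19 has a second annotated start, whose window (chr14:61046856-61047105) holds no match, and the window with matches was the one chosen for printing. Among the 8 windows, CTTTGAT occurred in 1, CTTTGAA in 0, CAGCTG in 1 and TATAAA in 3. The windows with TATAAA were that of Igfbp4 and 2 overlapping windows of Rgmb, which hold the same site. Of 32851 windows of the same length, 3.21% held CTTTGAT, 4.46% CTTTGAA, 13.0% CAGCTG and 12.4% TATAAA. The motifs do not overlap each other within these windows. The matches are given as letters only, and these short windows leave out distal elements.

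All 9 stem cell markers were lower in CD24Neg, by factors between 4.08 for Rgmb and 30.6 for Ascl2. Their median log2 fold change was -3.81, while that of all tested genes was -0.02. In each of the 9, the highest CD24Neg library lay below the lowest CD24Mid library. In the background, 68.3% of the tested genes passed the test in either direction, 34.3% were lower in CD24Neg, and 32.1% had every CD24Neg library below every CD24Mid library. When totals that leave out the 20 most abundant genes set the scale, 50.3% of tested genes were lower and 30.4% of all calls were higher, in place of 49.8%. The genes were listed as stem cell markers with earlier results of these data known, so the shared direction is described and adds no independent evidence about the gates. In bulk samples, fewer cells of a type and less RNA per cell cannot be told apart.

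**Figure D1:**
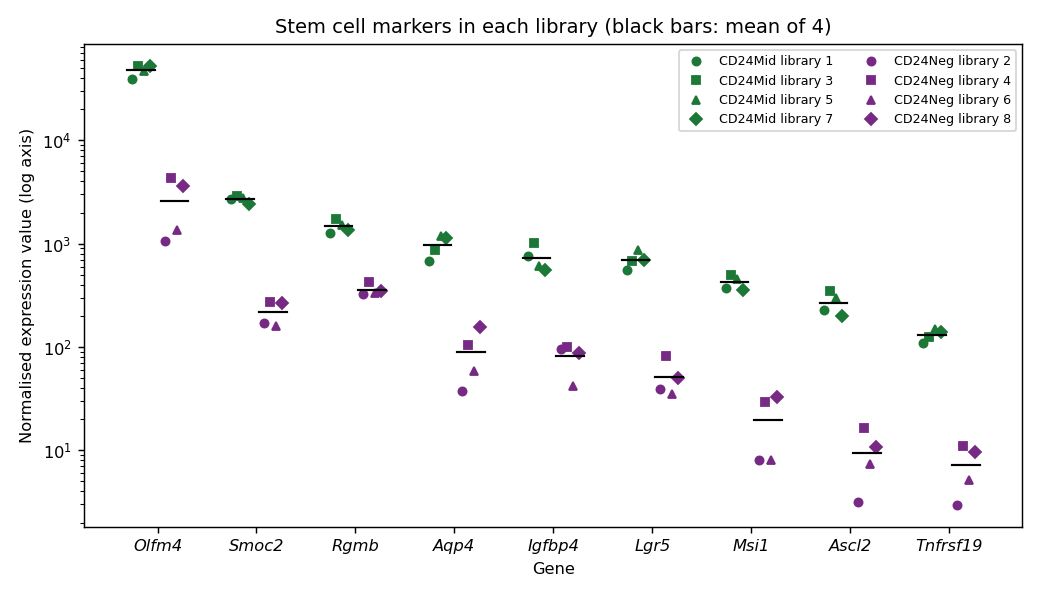
Normalised expression value (log axis) of the 9 stem cell markers in each of the 8 libraries, with 1 symbol per library and a black bar for the mean of 4. Each gene has a gap between the green CD24Mid and the purple CD24Neg symbols, narrowest for Rgmb, and CD24Neg libraries 4 and 8 (square and diamond) are above 2 and 6 in 8 of the 9 genes.

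The first of the surface receptors is Lgr5, the R-spondin receptor after which this cell is named. Its values were 555, 673, 876 and 696 in CD24Mid libraries 1, 3, 5 and 7, and 38.9, 82.7, 35.4 and 49.9 in CD24Neg libraries 2, 4, 6 and 8. CD24Neg library 4 was the highest of its fraction and still 6.71 times below the lowest CD24Mid library. The fold difference was 14.0 (log2 fold change -3.81, SE 0.26, adjusted p = 1.05e-06). Tnfrsf19, also called Troy, is a receptor of the tumour necrosis factor family that is itself a Wnt target. It had values of 109, 126, 149 and 139.9 in CD24Mid, and no CD24Neg library came near them. In CD24Neg it was at 2.97, 11.1, 5.22 and 9.70, which corresponds to 1.66 to 6.55 estimated reads per library. The fold difference was 18.7 (log2 fold change -4.23, SE 0.38, adjusted p = 5.96e-06). Its size is loosely held, with a 95% interval of 10.4 to 33.9 and few reads in CD24Neg.

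Ascl2 is the basic helix-loop-helix transcription factor that maintains the stem cell programme, and Msi1 is an RNA-binding protein of stem and progenitor cells. Ascl2 was at 229, 346, 298 and 201 in the CD24Mid libraries and at 3.15, 16.5, 7.32 and 10.7 in the CD24Neg libraries. The CD24Neg values stand for 1.76 to 9.74 estimated reads, 25.04 in all 4 libraries together against 1677 in CD24Mid. Its fold difference of 30.6 had the widest distance between fractions (log2 fold change -4.94, SE 0.43, adjusted p = 4.61e-06, 95% interval of the fold 15.8 to 59.4). The lowest CD24Mid library of Ascl2 was 12.2 times above its highest CD24Neg library. Msi1 was at 374, 502, 453 and 355 in CD24Mid and at 8.00, 29.2, 8.09 and 32.9 in CD24Neg. CD24Neg libraries 4 and 8 were about alike and so were 2 and 6, with a 4.12-fold span between lowest and highest and no overlap with CD24Mid. The fold difference of Msi1 was 25.4 (log2 fold change -4.67, SE 0.46, adjusted p = 9.85e-06).

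Olfm4, Smoc2 and Igfbp4 encode secreted proteins. Olfm4, a secreted glycoprotein used as a robust stem cell marker, had values of 39219, 52363, 46397 and 52512 in CD24Mid, and of 1065, 4311, 1360.0 and 3651 in CD24Neg. Libraries 4 and 8 held more than 2 and 6, and the fractions stayed 9.10-fold apart at their closest. On this scale, read as without length, Olfm4 made up 85.5% to 88.4% of the summed value of the 9 markers in CD24Mid. In CD24Neg it made up 60.9% to 80.5%. The fold difference was 21.6 (log2 fold change -4.44, SE 0.41, adjusted p = 6.92e-06). Even so, the lowest CD24Neg library held 596 estimated reads of Olfm4, so its level there rests on far more reads than that of Ascl2 or Tnfrsf19. Its spread between CD24Neg libraries was no smaller, with a coefficient of variation of 62.6% against 59.9% for Ascl2 and 52.3% for Tnfrsf19.

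Smoc2, a secreted calcium-binding matrix protein, was the most even marker within CD24Mid, with values of 2684, 2879.7, 2756 and 2437 and a coefficient of variation of 6.93%. Its CD24Neg values were 172, 273, 158.0 and 264, again highest in libraries 4 and 8 and with no overlap between fractions. The 12.7-fold difference had the smallest adjusted p of the 9 (log2 fold change -3.67, SE 0.18, adjusted p = 2.68e-07). Igfbp4, which binds insulin-like growth factors outside the cell, was the most variable in CD24Mid (760.1, 1008, 604 and 558, coefficient of variation 27.7%). In CD24Neg it was at 95.7, 101, 41.6 and 86.8, with library 6 below the others, and its highest library was still 5.55-fold under the lowest of CD24Mid. The fold difference of Igfbp4 was 9.22 (log2 fold change -3.21, SE 0.29, adjusted p = 6.06e-06).

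Aqp4, a water channel of the basolateral membrane, and Rgmb, a membrane-anchored BMP co-receptor, complete the list. Aqp4 was at 687, 878, 1191 and 1124 in CD24Mid and at 37.1, 104, 58.9 and 155 in CD24Neg, which is 12.2-fold apart (log2 fold change -3.61, SE 0.39, adjusted p = 1.99e-05). Library 8 was the highest CD24Neg library for Aqp4 and Msi1, whereas library 4 was highest for Lgr5, Ascl2, Olfm4, Smoc2, Tnfrsf19, Rgmb and Igfbp4. Rgmb was at 1267, 1729, 1518 and 1355 in CD24Mid and at 327, 428, 331 and 350.0 in CD24Neg. The fractions were closest for this gene, with the lowest CD24Mid library 2.96 times above the highest CD24Neg library. Its difference was 4.08-fold (log2 fold change -2.03, SE 0.13, adjusted p = 7.24e-07), with a 95% interval of 3.35 to 4.98. That interval lies below those of the other 8 markers, whose lower ends start at 5.88 for Igfbp4.

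Levels can be set beside each other only per length. With the values read as not divided by length, each was divided by the exon length of the gene in GENCODE M21. Per kilobase, Olfm4 in CD24Mid stood at 16422 ± 2167 and was rank 32 of 12505 tested genes with a length. Smoc2 followed at 885 ± 61.3, rank 863. A plateau of 6 genes came next, with Rgmb at 209 ± 28.9, Igfbp4 at 187 ± 51.7, Ascl2 at 165 ± 40.7, Aqp4 at 164 ± 39.2, Lgr5 at 148 ± 28.1 and Msi1 at 134 ± 21.8 (SD, n = 4 libraries). Each neighbouring pair on this plateau overlapped between libraries, and the order of neighbours held in only 2 or 3 of the 4 libraries. Olfm4, Smoc2 and the plateau did not overlap. Tnfrsf19 was last at 28.7 ± 3.80, below Msi1 in 4 of 4 libraries. Lgr5 itself thus ranked 5049 of 12505 in CD24Mid, in the middle of the tested genes.

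The order per kilobase changed in CD24Neg. Olfm4 remained first at 895 ± 560.5 and Tnfrsf19 last at 1.59 ± 0.831. Smoc2 (71.3 ± 19.7) and Rgmb (51.1 ± 6.70) were now neighbours with overlapping ranges, although Smoc2 was above Rgmb in 4 of 4 libraries, and Rgmb stood apart from Igfbp4 (20.7 ± 6.87). Ascl2 went from the fifth place to the eighth, at 5.80 ± 3.47, level with Msi1 at 6.24 ± 4.27. Aqp4 (15.0 ± 8.87) and Lgr5 (11.0 ± 4.57) overlapped as they did in CD24Mid. Among the 12505 genes, Olfm4 was rank 1219 in CD24Neg and Lgr5 rank 10825.

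**Figure D2:**
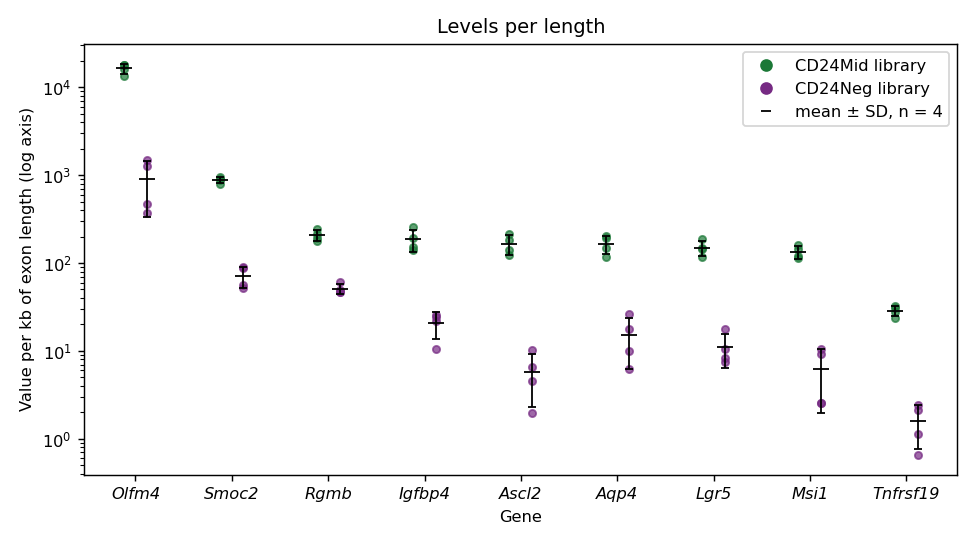
Value per kilobase of exon length (log axis) of each marker in the CD24Mid (green) and CD24Neg (purple) libraries, with points for single libraries and black bars for mean ± SD (n = 4). Olfm4 and Smoc2 stand above a plateau of 6 genes in CD24Mid, and in CD24Neg the plateau spreads out, with Rgmb at its top and Ascl2 and Msi1 at its foot.

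The level left in CD24Neg, as a percentage of the CD24Mid mean, ranged widely between markers. Ascl2 kept the least, 3.50% ± 2.10 (SD, n = 4 CD24Neg libraries), followed by Msi1 at 4.64% ± 3.18, Olfm4 at 5.45% ± 3.41 and Tnfrsf19 at 5.53% ± 2.90. Lgr5 was at 7.39% ± 3.08, Smoc2 at 8.06% ± 2.23, Aqp4 at 9.16% ± 5.40 and Igfbp4 at 11.1% ± 3.68. These 8 markers overlapped with their neighbours in this order. Rgmb kept 24.4% ± 3.21, and its lowest library (22.3%) was above the highest library of any other marker, Aqp4 in library 8 at 16.02%.

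Whether a marker differed in fold size from Lgr5 was tested on the ratio of the 2 genes within each library, which does not depend on how libraries are scaled. Rgmb rose relative to Lgr5, from a mean log2 ratio of 1.08 ± 0.25 in CD24Mid to 2.85 ± 0.37 in CD24Neg, and every CD24Neg library was above every CD24Mid library. Ascl2 moved the other way, from -1.39 ± 0.36 to -2.52 ± 0.61, also without overlap. Both reached the smallest p that an exact two-sided permutation test of 4 against 4 libraries can give (0.0286). After Benjamini-Hochberg adjustment over the 8 comparisons with Lgr5 neither passed (adjusted p = 0.114 each). When only 2 of 8 comparisons reach the smallest p, no lower adjusted p is possible, so the adjusted test could not decide for these genes. For Msi1 (difference of log2 ratios -0.86), Olfm4 (-0.63), Igfbp4 (0.60), Tnfrsf19 (-0.42), Aqp4 (0.20) and Smoc2 (0.14) the exact adjusted p lay between 0.229 and 0.743, which does not show that their fold sizes are alike.

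**Figure D3:**
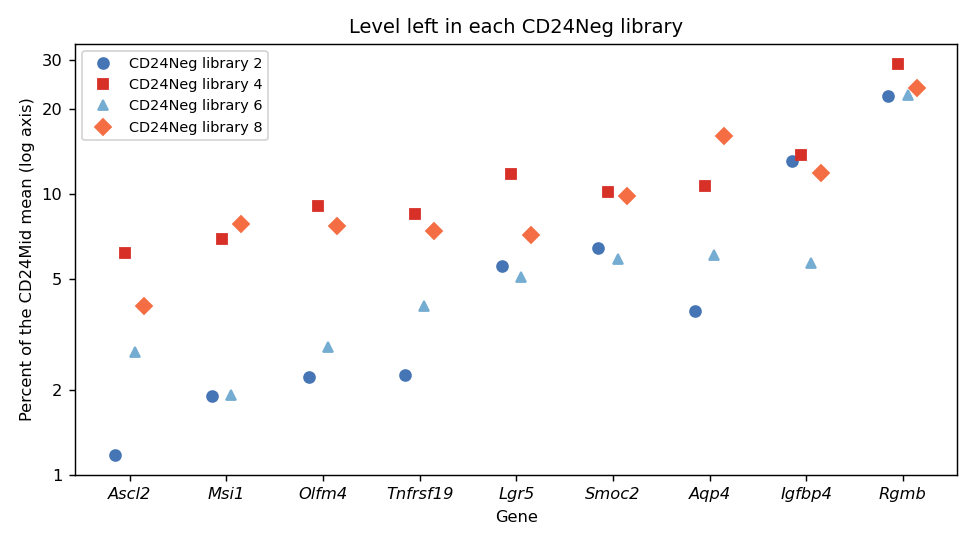
Value of each marker in the 4 CD24Neg libraries as a percentage of its CD24Mid mean (log axis), with genes ordered by the mean. Warm symbols (libraries 4 and 8) lie above cool ones (libraries 2 and 6) for every gene but Igfbp4, and Rgmb is above all other genes.

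The CD24Neg libraries did not carry the markers evenly. Libraries 4 and 8 were both above libraries 2 and 6 in 8 of the 9 markers, a pattern noticed after the values were seen. Of all tested genes, 12.9% showed it. The exception was Igfbp4, where library 2 (95.7) exceeded library 8 (86.8). The 9 markers together made up 0.0122% and 0.0127% of nuclear-gene values in libraries 2 and 6, and 0.0355% and 0.0329% in libraries 4 and 8. The span from lowest to highest CD24Neg library was 5.23-fold for Ascl2, 4.19-fold for Aqp4, 4.12-fold for Msi1 and 4.05-fold for Olfm4, while it was 1.72-fold for Smoc2 and 1.31-fold for Rgmb. Within CD24Mid no marker spanned more than 1.81-fold.

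All 14 tested genes of a proliferation list, such as the kinases Plk1 and Aurka and the replicative helicase subunits Mcm6 and Mcm7, had the same arrangement of CD24Neg libraries. Their summed level was 0.0236% and 0.0280% of nuclear-gene values in libraries 2 and 6 against 0.0389% and 0.0485% in libraries 4 and 8. In CD24Mid it was 0.265% to 0.377%. All 14 were lower in CD24Neg, against 34.3% of all tested genes, with a median log2 fold change of -3.07. The proliferation list kept 10.4% of its CD24Mid share and the 9 markers kept 4.53%, a sum that is mostly Olfm4. Without Olfm4, the markers made up 0.0602% to 0.0756% of nuclear-gene values in CD24Mid and 0.00410% to 0.00692% in CD24Neg. The summed level of Paneth cell markers was 0.0113% and 0.00930% in libraries 2 and 6 against 0.0351% and 0.0156% in libraries 4 and 8. The same arrangement was found in 7 of the 9 Paneth markers, where 12.9% of all tested genes showed it. In CD24Mid the Paneth list was at 0.0142% to 0.0354%, and CD24Neg kept 83.9% of its mean CD24Mid share. The part of dividing or Paneth cells in the uneven marker values of the CD24Neg libraries was not tested.

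**Figure D4:**
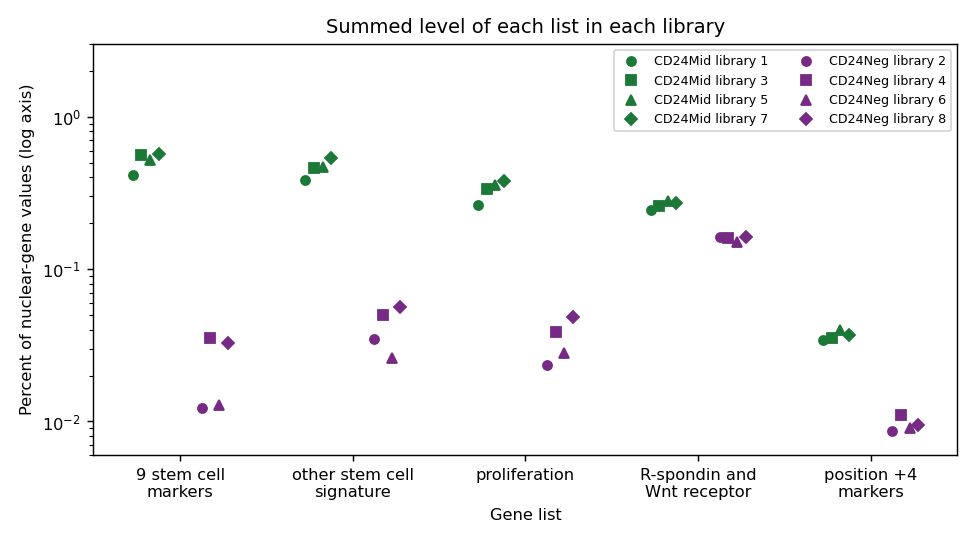
Summed level of 5 gene lists as a percentage of nuclear-gene values (log axis) in each library, CD24Mid in green and CD24Neg in purple. The 9 markers, the other signature genes and the proliferation genes are separated widely between fractions and are higher in CD24Neg libraries 4 and 8 than in 2 and 6, while the R-spondin and Wnt receptor list is separated by less.

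Most other genes of the Lgr5 stem cell signature were also lower in CD24Neg. Of 20 such genes, none of them among the 9 markers, 18 were lower in CD24Neg, 1 was higher and 1 was not called, with a median log2 fold change of -3.07. Of all tested genes, 34.3% were lower and 34.0% higher. Ptpro, named after its values were seen, is 1 of the 18 but met the filter on low values only through CD24Mid. Its test adds no support for the direction. Cdca7, a chromatin-associated target of Myc, was at 2383 ± 265 in CD24Mid and 289.8 ± 40.3 in CD24Neg (log2 fold change -3.04). The adhesion receptor Cd44 was 15.2-fold lower (1018 ± 168 against 68.6 ± 23.6), and the urea transporter Slc14a1 was 13.2-fold lower (458 ± 103 against 34.9 ± 11.3). Ephb2, a receptor tyrosine kinase of crypt positioning, was 5.44-fold lower, with 18.6% of its CD24Mid level left. The gene that was higher was Sp5, a transcription factor and Wnt target, at 114 ± 13.4 against 299 ± 58.7 (log2 fold change 1.38, adjusted p = 3.77e-05). Phlda1, named after its values were seen, was at 225 ± 23.6 against 190.3 ± 33.2 (adjusted p = 0.167).

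The pathway in which Lgr5 acts was lower in most of its tested genes. The list used for it held R-spondin and Wnt receptor genes, signal transducers, transcription factors and target genes. Of its 14 tested genes, 10 were lower in CD24Neg, 1 was higher and 3 were not called, with a median log2 fold change of -0.65. In the background 34.3% of tested genes were lower and 34.0% higher. Znrf3, a ubiquitin ligase that removes Wnt receptors and is held back by R-spondin with Lgr proteins, was 4.26-fold lower (367 ± 42.4 against 85.8 ± 10.5). The feedback inhibitor gene Axin2 was 3.50-fold lower (2232 ± 274 against 652 ± 187), the Wnt receptor gene Fzd7 2.64-fold (487 ± 51.4 against 185 ± 27.7) and Myc, a Wnt target, 10.9-fold. The transcription factor gene Tcf7l2 was higher, at 434 ± 33.2 against 789 ± 52.0 (log2 fold change 0.86, adjusted p = 2.51e-05). The genes not called were Ctnnb1, Apc and Lrp6, named after their values were seen, with log2 fold changes of 0.19, 0.24 and 0.13 (adjusted p = 0.1204, 0.382 and 0.494). Lef1 and Tcf7l1 were too low to be tested.

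Markers proposed for cells at about position +4 of the crypt, above the stem cells at its base, were lower in CD24Neg in 4 of 4 cases. Their median log2 fold change was -0.76, and 34.3% of all tested genes were lower. Lrig1, a negative regulator of ErbB receptors, was 4.44-fold lower (2445 ± 158 against 552 ± 66.2). The homeodomain-only gene Hopx (977 ± 116 against 555 ± 143), the Polycomb gene Bmi1 (366 ± 53.6 against 234 ± 30.8) and the telomerase gene Tert (126 ± 20.8 against 78.7 ± 16.8) were 1.79-fold, 1.56-fold and 1.61-fold lower. Their adjusted p-values were 0.00167, 0.00265 and 0.0107. With quantile normalization 3 of the 4 passed, as did 3 when CD24Neg libraries 2 and 8 were left out.

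The markers' own gene families hold further members. Of 23 relatives listed, 18 had a row and 9 were tested, of which 4 were lower, 4 higher and 1 not called, shares not far from the 34.3% and 34.0% of all tested genes. Lgr4, another R-spondin receptor, was at 2200, 2316, 2781 and 2747 in CD24Mid and at 1431, 1743, 1541 and 1698 in CD24Neg, a 1.56-fold difference (adjusted p = 0.000557). The fractions did not overlap for Lgr4 either, but lay close together. The log2 ratio of Lgr5 to Lgr4 fell from -1.85 ± 0.16 to -5.02 ± 0.44. Msi2 was 1.71-fold lower (552 ± 82.4 against 321 ± 30.5, adjusted p = 0.000431), and the log2 ratio of Msi1 to Msi2 fell from -0.39 ± 0.29 to -4.29 ± 0.96.

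Aqp1, a water channel, did not hold its call across libraries. It was at 3516 ± 648 against 2219 ± 926 (log2 fold change -0.74, adjusted p = 0.0377), a call that ended when 1 library was left out, be it number 1, 3 or 5 of CD24Mid or number 2 or 8 of CD24Neg (range of adjusted p over 19 alternatives 0.00142 to 0.431). With numbers 2 and 8 both left out, its log2 fold change was -0.18. The log2 ratio of Aqp4 to Aqp1 fell from -1.87 ± 0.58 to -4.74 ± 1.08. In each of these 3 within-family ratios every CD24Neg library was below every CD24Mid library. The ratios were chosen after the values were seen and are given without a test. The channel genes Aqp3, Aqp7 and Aqp8 were within a few reads of 0 in CD24Mid, at 2.01 ± 0.902, 3.47 ± 2.29 and 2.03 ± 1.49, and at 208 ± 93.6, 168 ± 79.6 and 283 ± 167 in CD24Neg. These genes met the filter on low values only through their CD24Neg libraries, so their calls add no support for the direction. Aqp11 was 2.78-fold higher in CD24Neg (359 ± 71.6 against 996 ± 151).

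Olfm1, a relative of Olfm4, was at 18.9 to 41.0 in CD24Mid and 0.927 to 7.96 in CD24Neg (log2 fold change -2.94, limma adjusted p = 0.000998). It met the filter on low values only through its CD24Mid libraries, so its test adds no support for the direction. Smoc1 did not pass (12.1 ± 6.31 against 7.94 ± 4.94, adjusted p = 0.485). Among the other insulin-like growth factor binding protein genes, Igfbp2, Igfbp3, Igfbp5, Igfbp6 and Igfbp7 had mean values of at most 6.01 in either fraction and were not tested. Rgma, a relative of Rgmb, had values of 1.74 to 2.61 in CD24Mid and was listed at 0 in all 4 CD24Neg libraries.

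**Figure D5:**
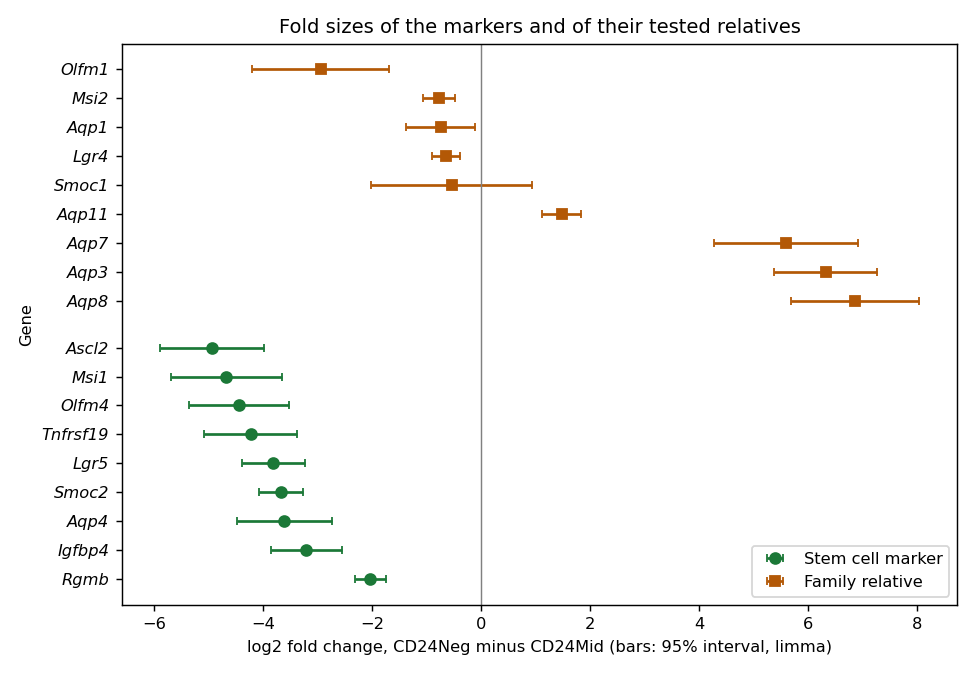
log2 fold change (CD24Neg minus CD24Mid) of the 9 markers (circles) and of their 9 tested family relatives (squares), with 95% intervals from limma. The markers lie between -4.94 and -2.03, while Lgr4, Msi2 and Aqp1 lie between -0.77 and -0.64 and the aquaporin genes Aqp3, Aqp7, Aqp8 and Aqp11 are above 0.

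Genes whose profile over the 8 libraries came nearest to the mean profile of the 9 markers were named by a fixed measure, the root mean square difference of centred log2 values. The 5 nearest were Tmem132a (0.10), Smo (0.15), Espl1 (0.16), Pbk (0.17) and Cnn3 (0.18). Smo, the transducer of Hedgehog signals, was at 481 ± 33.8 in CD24Mid and 35.3 ± 12.6 in CD24Neg. Espl1, the separase of sister chromatids, was at 860.4 ± 56.4 against 71.8 ± 28.6. Among the markers themselves, Smoc2 (0.20) and Lgr5 (0.23) were nearest to their common mean and Rgmb (0.96) was farthest, with 812 tested genes nearer than Rgmb. With 2 fractions and 8 libraries this measure mostly reflects the size of the difference between fractions.

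Transcripts of other cells also moved with the fractions. In the background, 34.3% of all tested genes were lower in CD24Neg and 34.0% higher. Of 10 enteroendocrine markers 8 were lower in CD24Neg, with a summed level of 0.0391% to 0.114% of nuclear-gene values in CD24Mid and 0.00753% to 0.0127% in CD24Neg, and Neurog3, the factor of their precursors, was at 85.5 to 207 in CD24Mid and at 6.88e-05 to 8.35 in CD24Neg. Of 6 tested plasma and B cell genes 5 were lower (0.0543% to 0.140% against 0.00226% to 0.00518%). Neurog3 and the B cell genes Cd79a and Mzb1 met the filter on low values only through their CD24Mid libraries. Their tests add no support for the direction. T cell genes went the other way, with 6 of 6 tested genes higher in CD24Neg (0.000472% to 0.00157% against 0.00262% to 0.0480%, highest in libraries 2 and 8). Of 10 enterocyte genes 10 were higher (0.167% to 0.286% against 3.23% to 5.26%), as were 5 of 8 goblet cell genes (0.498% to 0.720% against 1.17% to 3.39%). Their part in the lower marker values was not tested. Of 9 mesenchymal genes with a row 7 held at most 3 estimated reads in every library, with Col1a2, Pdgfra and Des at 0 in every CD24Mid library, while Pdgfrb was at 39.8 ± 9.30 against 32.2 ± 6.65. The endothelial gene Pecam1 was at 16.04 ± 6.09 against 19.2 ± 11.4 and was not called. Without CD24Neg libraries 2 and 8, all 9 markers remained lower.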

How the data were processed

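RNA of 4 CD24Mid and 4 CD24Neg libraries was prepared with a TruSeq kit, per the labels' protocols. The authors deposited a signal value per Ensembl gene, a gene-level estimate per the file headers. The values were already scaled between libraries (the median ratio to the geometric mean was 1.0102 to 1.0104). Bowtie 0.12.8 and the build NCBIM37 are listed, with no role given, in the submitters' processing notes. The estimation settings, annotation release and scaling tool are not given in those sources. Symbols came from GENCODE M21 (21223 of 23318 identifiers), and exon length is the union of its basic transcripts. Divided by the value of 1 read, 29.4% to 34.1% of the values above 0 and under 30 reads fell within 0.1 of a whole number, and the steps lay -0.381 to -0.350 reads off whole numbers, so no count test was run and the lowest read estimates are slightly low.

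Tested genes reached 10 in 4 or more libraries. After centring each library on its median ratio, log2(value + 0.5) entered limma 3.58.1 under R 4.3.3, with trend and robust variance, no covariates and 6 residual degrees of freedom. Ratios were compared with exact permutation tests in scipy 1.17.1. The fit was also run on simulated data with few changed genes and a single setting of spread for all genes, unlike the data here. That run gives no error rate for these data. The value of 1 read is the spacing of the lowest 8 steps. Intervals from limma have a 95% level and cover the spread between these libraries.

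The markers, gene lists and tests were chosen with earlier results of these data known. Named genes are the 9 markers, their relatives, up to 4 genes of each other list by adjusted p plus 1 in a missed direction, and the 5 nearest profiles outside the lists. Any other gene is either marked as picked with its values known or stands as an example of a marker list. The values of 2 genes of the marker lists are not reported here. Alternatives covered normalization, filters, the variance model, the pseudocount and left-out libraries. Leaving out CD24Neg libraries 2 and 8, scaling to nuclear totals, the block on adjacent title numbers and the alternatives for within-family ratios were added after seeing the data.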

Additional observations from a re-analysis of the deposited data

How the results depend on the processing

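Each of the 9 markers stayed lower in CD24Neg and past the threshold under all 19 alternatives (171 values, adjusted p from 1.03e-07 to 0.000835), and the count of other signature genes that were lower ranged from 17 to 19 and that of pathway genes from 10 to 11. The number of all genes called ranged from 7964 to 9948 against 8810. Scaling moved the centre of all genes: their median log2 fold change was -0.02 as centred, -0.44 with totals without the 20 most abundant genes and -0.49 with totals of nuclear genes, and the 9 markers had larger folds under both. The level of Rgmb left in CD24Neg went from 24.4% to 18.2% with totals without the 20 most abundant genes, and without 1 library it ranged from 22.9% to 26.0%. The number of family relatives that were lower was 4, and 7 with the filter on a log2 value above 0 in every library of 1 fraction, which tests more low genes. Leaving out 1 library gave 2 to 4, since without any CD24Mid library Olfm1 no longer met the filter and without CD24Mid library 1, 3 or 5 the Aqp1 call ended. With a CD24Neg library left out, Aqp3, Aqp7 and Aqp8 did not meet the filter either. With 1 library left out, the difference of log2 ratios to Lgr5 ranged from 1.66 to 1.94 for Rgmb, -1.26 to -0.83 for Ascl2, -0.86 to -0.39 for Olfm4, 0.037 to 0.27 for Smoc2 and -0.13 to 0.44 for Aqp4, which turned sign without CD24Neg library 8. These have no test, since 4 against 3 libraries cannot pass. The fractions share no title number, and the labels do not state pairs, but adjacent numbers (1 with 2 and so on) deviated together (correlation over genes 0.282 to 0.332 in the 4 adjacent pairs, at most 0.033 in the others). A replicate block on adjacent numbers, chosen after seeing the data, called 9504 genes and kept 9 markers, 18 other signature genes, 10 pathway genes and 4 relatives as lower. Depth limits Ascl2, Tnfrsf19 and Msi1 in CD24Neg, where a library held as few as 1.76, 1.66 and 4.47 estimated reads.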
